A study of Mus musculus with 10 samples.

Results

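The ephrins and Eph receptors, the semaphorins with their plexin and neuropilin receptors, the Slit and Robo proteins, and the netrins with their Unc5 receptors were followed across 10 RNA sequencing libraries of mouse liver. Members were chosen by gene symbol alone, as every row of the expression table whose symbol belongs to one of these families, and 61 of 16697 gene rows matched. Of the 61 genes, 31 encode ligands and 28 encode receptors or co-receptors. The other 2, Unc5cl and Unc50, match by their letters and have no known guidance role.

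The libraries form 3 groups, all from mice labeled wild type. NL is normal liver (n = 4). c-MYC is tumor tissue from livers that received a c-MYC plasmid together with the empty pT3-EF1α vector (n = 3). c-MYC/FOXO1AAA is tumor tissue that received c-MYC together with FOXO1AAA, a MYC-tagged FOXO1 mutant that is always active as a transcription factor, in the same vector (n = 3). Hydrodynamic tail vein injection, a rapid injection of a large volume, places plasmids mainly in hepatocytes, and the EF1α promoter is active in most cell types. Each tumor library is whole tissue, so it also holds endothelial, stellate and immune cells of the host. The labels give the strain as C57BL/6 and the extraction protocol gives FVB, no ages are given, and the descriptions of the study disagree on whether an MCL1 plasmid was added to the c-MYC control injections. These points were not used in any test.

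Guidance ligands were first studied in growing axons, where they attract or repel the growth cone. Ephrins are bound to the membrane and signal to Eph receptor tyrosine kinases on the neighboring cell. Class 3 semaphorins are secreted and bind neuropilins, which pass the signal through plexins, whereas most other semaphorins bind plexins directly. Slits act through Robo receptors, and netrins act through Dcc, neogenin and Unc5 receptors. In the liver and in other organs the same molecules are known for roles in vessel growth, bile duct formation, zonation and the sorting of epithelial cells.

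Levels are given in FPKM, read fragments scaled to gene length and to library size, computed from whole reads that were recovered from the deposited log2 values. A gene was tested if its deposited FPKM, which includes a prior count, was at least 1 in at least 3 libraries. It was called higher or lower when limma's test against a 1.5-fold change gave a Benjamini-Hochberg adjusted p under 0.05 over all 14017 genes tested. Log2 fold changes (log2FC) are on the deposited scale, where an average prior count of 2 reads lessens the change of rare genes. A gene that was not called may still have changed, since the test asks for more than a 1.5-fold change with 3 or 4 libraries a group. The 3 comparisons share libraries, so they are not independent of each other. The labels number the libraries of a group and do not say that each is a separate animal, so the p-values measure the spread between these libraries. Recovered reads ranged from 13.1 to 20.5 M per library. In the library check, Foxo1 lay at 6.67 to 7.86 FPKM in NL, at 5.16 to 6.45 in c-MYC and at 70.1 to 95.6 in c-MYC/FOXO1AAA. The table does not separate the transgene from the mouse gene. Hepatocyte markers (6 genes) summed to 79366 to 89283 FPKM in NL, 3253 to 5079 in c-MYC and 860 to 1538 in c-MYC/FOXO1AAA. In c-MYC against NL, 5 of the 6 fell and Hnf4a was not called. With FOXO1AAA against c-MYC, Apoa1, Ttr, Cps1 and Hnf4a fell, Cyp2e1 rose (log2FC 2.75) and Alb was not called.

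Of the 61 members, 43 passed the filter on low values and 18 did not. Of the 43, 8 passed only through the c-MYC/FOXO1AAA libraries (Efna2, Efna4, Sema3a, Sema3b, Sema3d, Sema4c, Slit3 and Robo2), 2 only through NL (Plxnc1 and Ntn1) and 1 only through c-MYC (Unc5cl). These genes entered the test because they are high in a single group, so their calls could hardly have gone the other way. The same limit holds for the rises of Sema3c and Sema6c with FOXO1AAA, since they reached the filter in 2 NL and 0 c-MYC libraries. For Plxna3 and Sema4d, 0 NL libraries and 3 of each tumor group reached it, so their rises against NL share the limit. So does the rise of Efnb2 against NL, with 0 NL, 2 c-MYC and 3 c-MYC/FOXO1AAA libraries. In 10 members, the gene length behind the FPKM is under 50% of the longest coding transcript in the GENCODE M21 annotation (GRCm38). For Plxna1 it is 678 of 9034 bp, and for Sema5a it is 902 of 10809 bp. The other 8 are Epha7, Sema3c, Sema6a, Robo2, Robo3, Robo4, Ntn3 and Unc5c. The FPKM of such genes cannot be ranked safely against other genes, and family sums and shares that include them carry the same limit. The length is the same in every library, so it cancels in a gene's changes between libraries. Whether the transcripts in use differ between the groups was not tested.

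**Figure D1:**
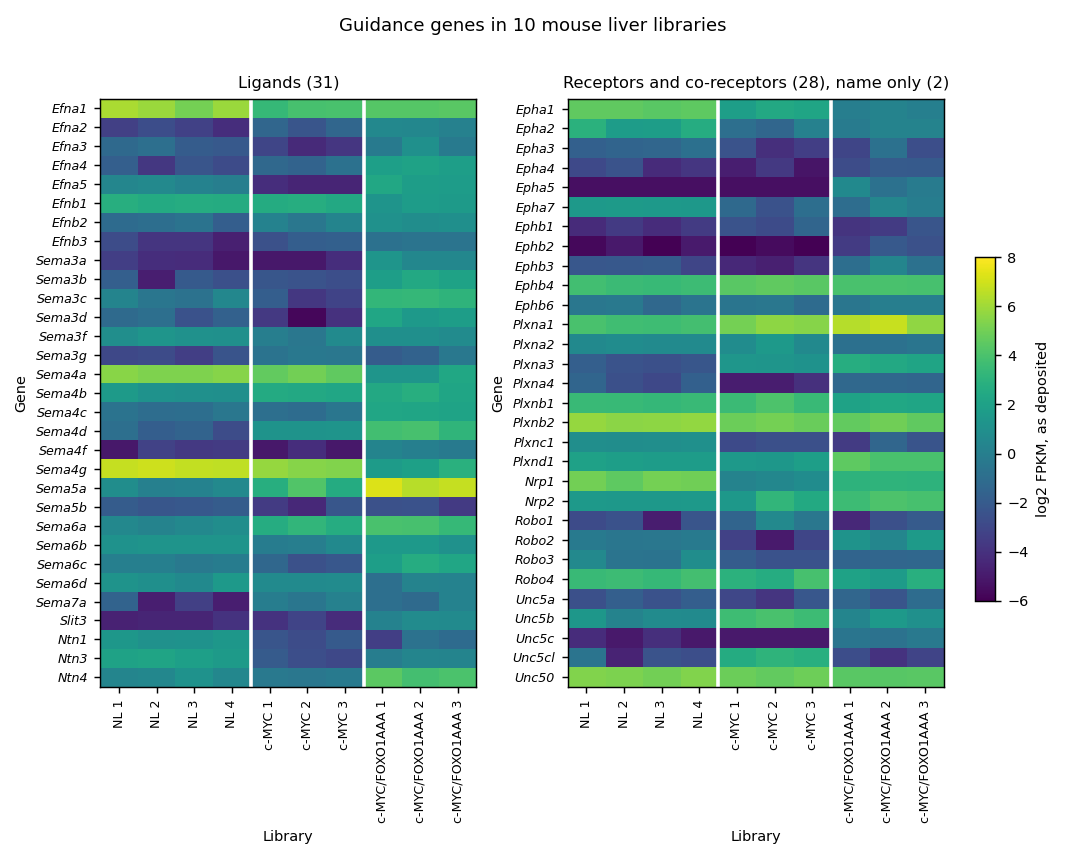
Color gives the deposited log2 FPKM of each of the 61 genes (rows) in each of the 10 libraries (columns), with 31 ligands on the left and receptors, co-receptors and the 2 name-only genes on the right. Sema3a, Sema3b, Sema3c, Sema3d and Ntn4 are brightest in the 3 c-MYC/FOXO1AAA libraries, and Sema4a and Sema4g are darkest there.

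The first comparison, c-MYC against NL, asks how the guidance genes differ between c-MYC tumors and normal liver. In the tumors 10 members were higher and 14 lower out of 43 tested. Over all genes tested, 24.5% were higher and 23.6% were lower, against 23.3% and 32.6% of the members. The median log2FC was -0.38 over the members tested and 0.08 over all genes.

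Among the ligands, 5 of 25 tested were higher in c-MYC and 8 were lower. Efna5, which encodes ephrin-A5, had 1.32, 1.47, 1.12 and 0.967 FPKM in NL and 0.027, 0.0132 and 0.0135 FPKM in c-MYC. The c-MYC libraries held 2, 1 and 1 reads of Efna5 against 35 to 59 in NL. The log2FC was -4.72 (SE 0.28, adjusted p = 2.48e-07). Efna1, the ligand with the highest level among the ephrins, was lower as well, at 34.0 to 75.4 FPKM in NL and 10.4 to 15.6 FPKM in c-MYC (log2FC -2.03, adjusted p = 0.000212).

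The secreted netrins Ntn3 and Ntn1 both fell. Ntn3 had 4.08, 4.48, 3.68 and 2.99 FPKM in NL and 0.187, 0.0909 and 0.0622 FPKM in c-MYC (log2FC -4.47, SE 0.28, adjusted p = 4.63e-07). Ntn1, the best studied netrin, had 2.64, 2.13, 2.20 and 2.6 FPKM in NL and 0.186, 0.127 and 0.222 FPKM in c-MYC (log2FC -3.63, SE 0.54, adjusted p = 0.000366). No overlap between the groups was a condition for giving values library by library, so it adds no support for such genes. No c-MYC library reached 0.25 FPKM of Ntn3 or Ntn1. The fitted falls of Sema3c (log2FC -2.77) and Sema3d (log2FC -2.93) rest on few reads, with 0 to 7 reads per c-MYC library and 8 to 31 in NL, and both calls were lost with a pseudocount of 1 (adjusted p = 0.298 and 1).

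Sema4g, a membrane semaphorin, had the highest FPKM of any ligand in NL, at 109, 121, 104 and 102 FPKM, and had 54.8, 43.6 and 41.4 FPKM in c-MYC. Its log2FC of -1.23 (SE 0.23, adjusted p = 0.0217) lost the call without c-MYC replicate 2 (adjusted p = 0.0617) or replicate 3 (adjusted p = 0.0702). The call was also lost with the same FPKM total in every library, where the log2FC was -0.31. Quantile normalization, a 2-fold threshold and a replicate block lost it as well (adjusted p = 0.226, 0.406 and 0.0534). Sema6c also fell, from 0.756 to 0.987 FPKM in NL to 0.131 to 0.364 FPKM in c-MYC (log2FC -1.92, adjusted p = 0.0028), a call lost with a pseudocount of 1 (adjusted p = 0.734) and with the same FPKM total (adjusted p = 0.161).

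The ligands that rose were membrane semaphorins of classes 4 to 6 and Efna2. Sema4d, the ligand of plexin-B1, had 0.506, 0.261, 0.321 and 0.125 FPKM in NL and 2.28, 2.22 and 2.37 FPKM in c-MYC (log2FC 2.95, SE 0.38, adjusted p = 0.000151). Sema5a had 1.71, 0.941, 1.02 and 1.36 FPKM in NL and 6.64, 18 and 6.10 FPKM in c-MYC (log2FC 2.75, SE 0.36, adjusted p = 0.00027). For Sema5a the second c-MYC library stood well above the others.

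Sema6a had 1.4, 1.18, 1.43 and 1.76 FPKM in NL and 6.32, 9.28 and 6.35 FPKM in c-MYC (log2FC 2.30, SE 0.21, adjusted p = 2.05e-05). Sema4b had 3.01, 2.20, 2.02 and 1.96 FPKM in NL and 5.83, 5.45 and 4.85 FPKM in c-MYC (log2FC 1.23, SE 0.19, adjusted p = 0.00813). Neither gene's groups overlapped, as the choice of genes given library by library required. Efna2 rested on 0 to 2 reads per NL library and 6 to 13 per c-MYC library, a pooled ratio of 5.65 (95% counting interval 2.0 to 22.0, which covers counting error only), and its call was lost without c-MYC replicate 1 or 3 (adjusted p = 0.0709 and 0.0688).

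Among the receptors and co-receptors, 4 of 16 tested were higher in c-MYC and 6 were lower. Nrp1, a co-receptor for class 3 semaphorins and for VEGF that endothelial cells express strongly, had 32.0, 23.3, 33.9 and 31.7 FPKM in NL and 1.18, 1.39 and 1.74 FPKM in c-MYC. The log2FC was -4.37 (SE 0.16, adjusted p = 9.46e-09). Robo2 fell from 0.667 to 0.817 FPKM in NL to 0 to 0.0855 FPKM in c-MYC, where it had 0 to 6 reads per library (log2FC -3.43, adjusted p = 0.000189), and that call was lost with a pseudocount of 1 (adjusted p = 0.417).

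All 3 EphA receptors tested fell. Epha1 had 24.0, 23.6, 21.7 and 23.3 FPKM in NL and 3.5, 5.37 and 4.57 FPKM in c-MYC (log2FC -2.38, SE 0.15, adjusted p = 1.51e-06). Epha2, a receptor for ephrin-A1, had 7.80, 3.25, 3.48 and 6.24 FPKM in NL and 0.515, 0.353 and 1.10 FPKM in c-MYC (log2FC -2.98, SE 0.41, adjusted p = 0.000263). NL fell into a high and a low pair for Epha2. Epha7 had 2.79, 2.95, 2.84 and 2.58 FPKM in NL and 0.252, 0 and 0.336 FPKM in c-MYC, from 15 to 20 and 0 to 4 reads per library (log2FC -3.10, SE 0.41, adjusted p = 0.00018).

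Plexins went in both directions. Plxnc1, the receptor of Sema7a, had 1.85, 1.79, 1.85 and 2.03 FPKM in NL and 0.119, 0.153 and 0.149 FPKM in c-MYC (log2FC -3.60, SE 0.44, adjusted p = 7.99e-05). Plxna3 had 0.274, 0.168, 0.148 and 0.193 FPKM in NL and 2.53, 2.47 and 2.16 FPKM in c-MYC (log2FC 3.53, SE 0.26, adjusted p = 1.97e-06). Plexin-A3 transmits signals of class 3 semaphorins, and its gene lay in a narrow range within each group. Plxna3 reached the filter in 0 NL libraries, so this call could hardly have been lower. Plxna1 had 15.6, 13.0, 12.5 and 13.8 FPKM in NL and 33.8, 49.6 and 43.8 FPKM in c-MYC (log2FC 1.60, SE 0.24, adjusted p = 0.00222).

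Unc5b, a netrin receptor of vessels, had 2.62, 1.17, 1.68 and 1.63 FPKM in NL and 12.4, 15.7 and 11.9 FPKM in c-MYC (log2FC 2.94, SE 0.31, adjusted p = 3.94e-05). Ephb4, the receptor of ephrin-B2, rose from 10.8 to 13.5 FPKM in NL to 21.1 to 23.7 FPKM in c-MYC (log2FC 0.88, adjusted p = 0.0161), and lost the call without c-MYC replicate 2 (adjusted p = 0.0551). The name-only gene Unc5cl had 0.606, 0, 0.144 and 0.118 FPKM in NL and 6.14, 8.53 and 7.04 FPKM in c-MYC (log2FC 5.42, SE 0.74, adjusted p = 0.000135). It encodes a death domain protein and is no netrin receptor.

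The direction of these counts depends on the scale. The library scaling factors recovered from the deposited values were 0.649 to 0.684 in NL, 1.26 to 1.29 in c-MYC and 1.45 to 1.5 in c-MYC/FOXO1AAA. With every library set to the same FPKM total instead, the median log2FC of all genes moved to 1.01 in c-MYC against NL and to 1.31 in c-MYC/FOXO1AAA against NL, from 0.08 and 0.21. The share of called members that were higher then became 57.1% (from 41.7%) and 82.8% (from 55.6%), and over all genes it became 78.8% (from 51.0%) and 79.5% (from 54.0%). In c-MYC/FOXO1AAA against c-MYC the median moved from 0.03 to 0.20 and the share of members from 69.2% to 74.1%.

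**Figure D2:**
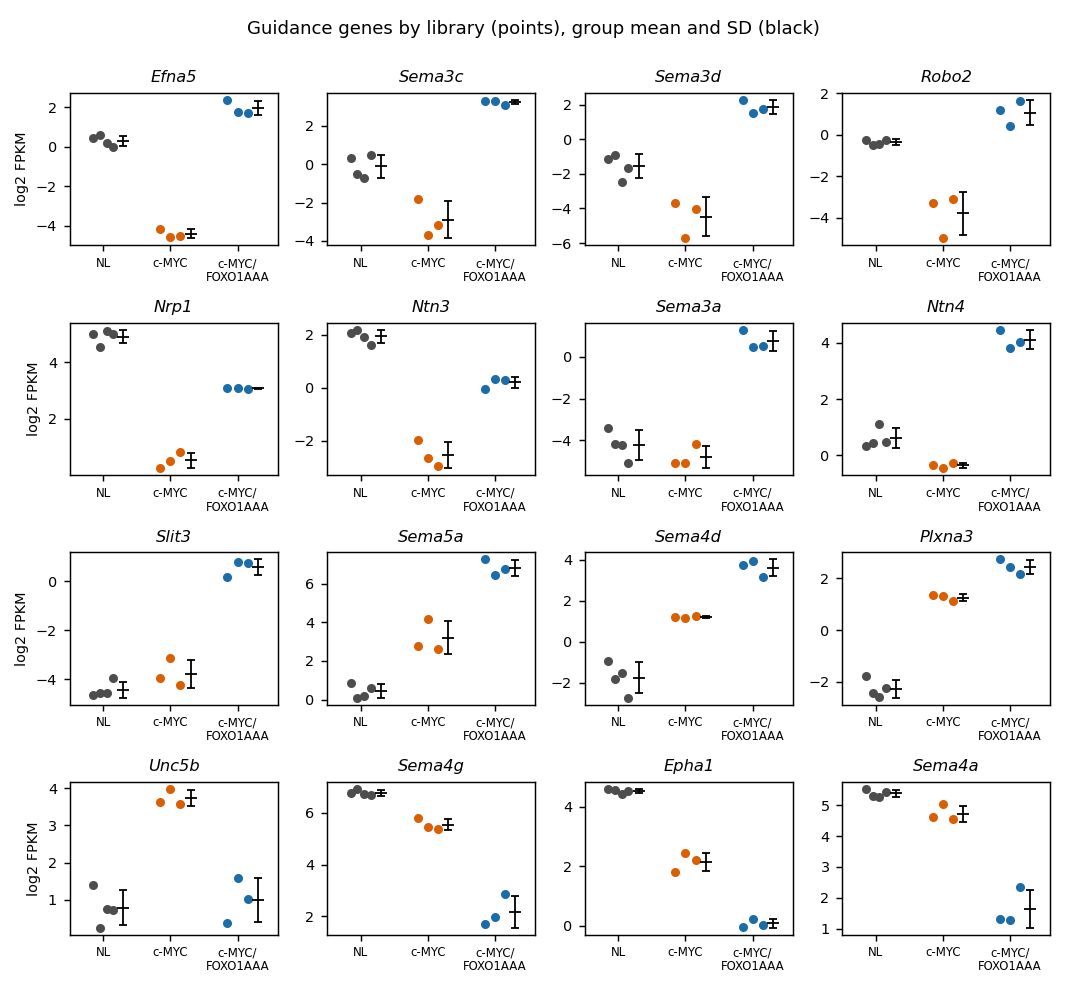
Each panel plots the deposited log2 FPKM of a gene by library (points), with the group mean and SD in black, for NL (n = 4), c-MYC (n = 3) and c-MYC/FOXO1AAA (n = 3). Efna5 lies between -4.56 and -4.15 in the 3 c-MYC libraries and lies above 1.5 in all 3 c-MYC/FOXO1AAA libraries, whereas Unc5b is highest in the 3 c-MYC libraries.

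The second comparison, c-MYC/FOXO1AAA against c-MYC, asks what active FOXO1 changes within c-MYC tumors. With FOXO1AAA 18 members were higher and 8 lower out of 43 tested. Over all genes tested, 15.9% were higher and 12.7% lower, against 41.9% and 18.6% of the members. The median log2FC was 0.94 over the members tested and 0.03 over all genes. Of the 25 ligands tested, 15 were higher and 3 lower (median log2FC 2.40), and of the 16 receptors and co-receptors tested, 3 were higher and 4 lower (median 0.51). Of the 15 ligands that rose, 7 entered the test only through the c-MYC/FOXO1AAA libraries. Sema3c and Sema6c, among the others that rose, also needed these libraries to pass the filter. Without a filter on low values, 17 of 31 ligands were higher and 3 lower (median 2.06), and 10 of 28 receptors and co-receptors were higher and 4 lower (median 1.04). The difference between ligands and receptors was not tested, and the counts of receptors depend on the filter.

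**Figure D3:**
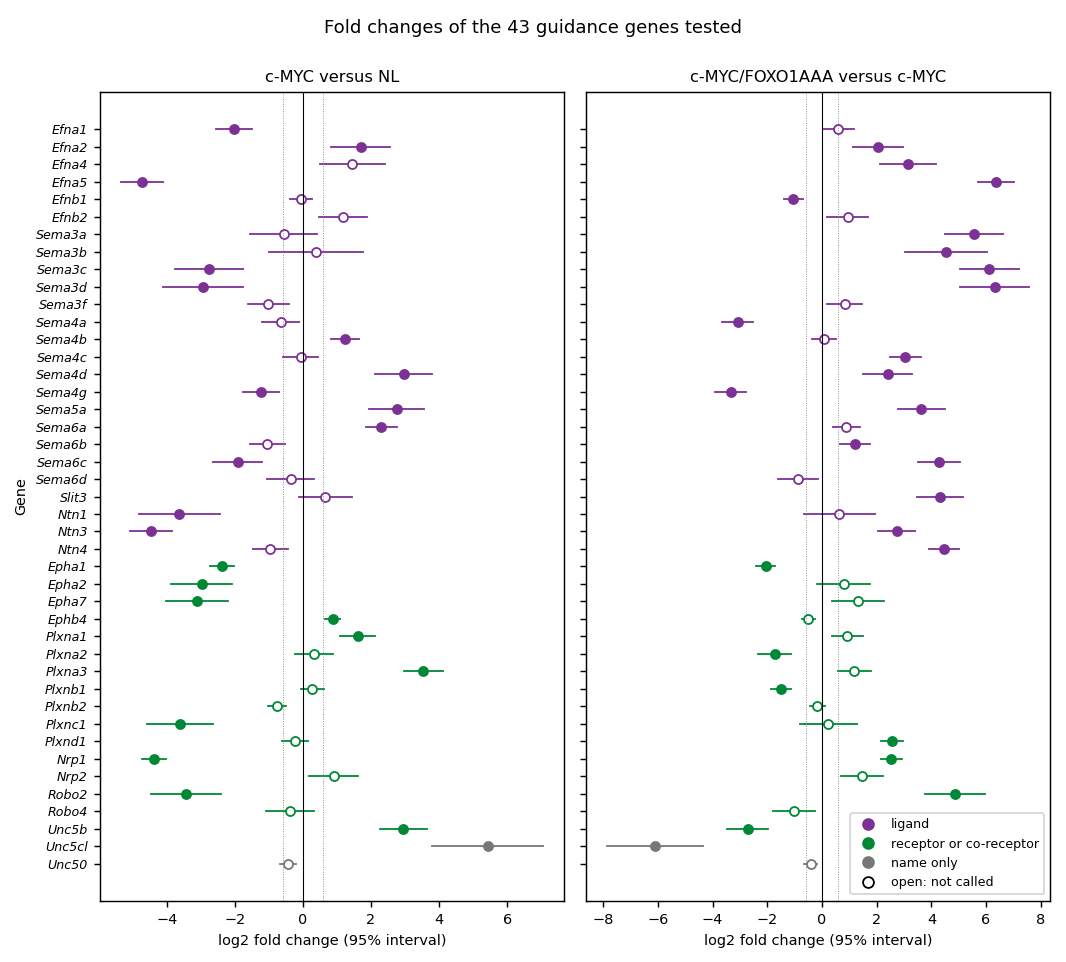
Points give the log2 fold change and lines its 95% interval for the 43 genes tested, in c-MYC against NL (left) and c-MYC/FOXO1AAA against c-MYC (right), with filled points for called genes and dotted lines at a 1.5-fold change. On the right, 15 of 25 ligands (purple) are called higher, against 3 of 16 receptors or co-receptors (green), and without a filter on low values the counts are 17 of 31 and 10 of 28.

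Efna5, Sema3d and Sema3c had the highest fitted log2FC, and the order among such genes depends on the pseudocount because c-MYC held few or no reads of them. Efna5 had 5.13, 3.40 and 3.29 FPKM in c-MYC/FOXO1AAA, from 260 to 510 reads, where the c-MYC libraries held 1 or 2 reads each. The pooled ratio was 221 (95% counting interval 86.1 to 813) and the log2FC 6.38 (SE 0.30, adjusted p = 1.04e-07). The level was also above NL (log2FC 1.65, adjusted p = 0.00308). Efna4 rose from 0.266 to 0.511 FPKM to 3.57 to 4.06 FPKM (log2FC 3.14, adjusted p = 0.000701), and Efna2 from 0.149 to 0.332 FPKM to 1.05 to 1.39 FPKM (log2FC 2.06, adjusted p = 0.0108), although the call of Efna2 was lost with a pseudocount of 1. Efna1 was not called, at 19.7 to 20.9 FPKM (log2FC 0.59, adjusted p = 0.99).

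Of 5 class 3 semaphorins tested, 4 rose by more than 4 log2 units. Sema3a, Sema3b and Sema3d among them entered the test only through the c-MYC/FOXO1AAA libraries, and Sema3c could not have entered without them. Sema3g was under the filter, at 0.612 to 0.725 FPKM in c-MYC and 0.241 to 0.741 FPKM with FOXO1AAA. Sema3c had 9.69, 9.79 and 8.46 FPKM with FOXO1AAA and 0.211, 0 and 0.0351 FPKM in c-MYC (log2FC 6.12, SE 0.48, adjusted p = 4.2e-06). Sema3d had 4.83, 2.80 and 3.40 FPKM with FOXO1AAA and 0.0605, 0 and 0.0432 FPKM in c-MYC (log2FC 6.32, SE 0.57, adjusted p = 1.08e-05). Both encode secreted proteins that bind neuropilins, and their c-MYC/FOXO1AAA libraries lay above all 7 other libraries.

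Sema3a, which encodes a well-known repellent of axons, had 2.44, 1.37 and 1.39 FPKM with FOXO1AAA and 0, 0 and 0.0267 FPKM in c-MYC, where the only reads were 2 in the third library. The pooled ratio was 196 (95% counting interval 54.1 to 1626) and the log2FC 5.56 (SE 0.48, adjusted p = 8.2e-06). Sema3b had 3.5, 5.40 and 4.17 FPKM with FOXO1AAA and 0.176, 0.156 and 0.128 FPKM in c-MYC (log2FC 4.53, SE 0.67, adjusted p = 0.000479). Sema3f differed from these, at 1.65 to 1.94 FPKM with FOXO1AAA and 0.688 to 1.59 FPKM in c-MYC, and was not called (log2FC 0.83, adjusted p = 0.497). The summed FPKM of the 6 class 3 genes was 3.11 to 3.90 in NL, 1.57 to 2.53 in c-MYC and 19.8 to 22.6 in c-MYC/FOXO1AAA.

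Netrin-4, a laminin-related netrin found in basement membranes, is encoded by Ntn4. It had 1.24, 1.34, 2.16 and 1.38 FPKM in NL, 0.762, 0.699 and 0.791 FPKM in c-MYC and 22.1, 14.0 and 16.5 FPKM in c-MYC/FOXO1AAA. The log2FC against c-MYC was 4.46 (SE 0.25, adjusted p = 4.29e-07), and against NL it was 3.5 (adjusted p = 5.01e-07). Ntn4 made up 92.3% of the summed netrin FPKM with FOXO1AAA. Ntn3 rose to 0.904 to 1.20 FPKM (log2FC 2.73, adjusted p = 0.000119) and was below NL (log2FC -1.74, adjusted p = 0.00221), which was lost with the same FPKM total (adjusted p = 0.511), and its call against c-MYC was lost with a pseudocount of 1 (adjusted p = 0.112). Ntn1, at 0.076 to 0.587 FPKM, was not called (adjusted p = 0.988).

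Slit3, the only Slit gene measured here, had 0.0417, 0.0914 and 0.0312 FPKM in c-MYC (3 to 9 reads) and 1.11, 1.68 and 1.63 FPKM with FOXO1AAA (143 to 262 reads). The log2FC was 4.32 (SE 0.38, adjusted p = 1.12e-05). NL held 1 or 2 reads of Slit3 per library. Its receptor gene Robo2 rose from 0 to 0.0855 FPKM to 2.25, 1.29 and 3.02 FPKM (log2FC 4.87, SE 0.50, adjusted p = 3.11e-05), a level not called different from NL (log2FC 1.43, adjusted p = 0.0812).

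The membrane semaphorins split. Sema5a had 154, 88.8 and 107 FPKM with FOXO1AAA (log2FC 3.64, adjusted p = 7.57e-05), from 1896 to 3428 reads per library against at most 306 in c-MYC. Sema4d had 13.5, 15.3 and 8.86 FPKM (log2FC 2.40, adjusted p = 0.00256). These genes and Efna2 were called higher at both steps, from NL to c-MYC and from c-MYC to c-MYC/FOXO1AAA. Sema6c rose to 3.60 to 6.34 FPKM (log2FC 4.29, adjusted p = 6.76e-06) and Sema4c to 4.39 to 4.92 FPKM (log2FC 3.05, adjusted p = 1.26e-05). Sema6b rose to 2.06 to 2.97 FPKM (log2FC 1.22, adjusted p = 0.048), and this call was lost without c-MYC replicate 1 or 2 and without c-MYC/FOXO1AAA replicate 1 or 2 (adjusted p = 0.129 to 0.152).

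Sema4g and Sema4a fell. Sema4g had 3.22, 3.92 and 7.33 FPKM with FOXO1AAA, below all c-MYC and NL libraries (log2FC -3.35, SE 0.25, adjusted p = 5.87e-06). Sema4a, known from immune cells, had 46.3, 39.6, 39.1 and 43.1 FPKM in NL, 24.4, 32.8 and 23.5 FPKM in c-MYC and 2.43, 2.38 and 5.07 FPKM with FOXO1AAA (log2FC against c-MYC -3.09, SE 0.26, adjusted p = 1.33e-05). In NL the class 4 sum was led by Sema4g at 70.7%, whereas with FOXO1AAA it was led by Sema4d at 39.2%, and the sum went from 146 to 163 FPKM in NL to 30.8 to 34.1 FPKM. Efnb1 had 6.14, 6.48 and 5.51 FPKM in c-MYC and 2.37, 3.30 and 3.08 FPKM with FOXO1AAA (log2FC -1.05, SE 0.16, adjusted p = 0.0237), a call lost without c-MYC replicate 1 or 2 or c-MYC/FOXO1AAA replicate 1 (adjusted p = 0.0589, 0.0696 and 0.0933).

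Among the receptors, Plxnd1 and Nrp1 rose beside Robo2. Plxnd1, a plexin of endothelial cells that binds class 3 semaphorins, had 2.90, 2.66 and 3.56 FPKM in c-MYC and 22.8, 15.7 and 15.8 FPKM with FOXO1AAA (log2FC 2.56, adjusted p = 5.42e-06). Nrp1 rose to 8.38, 8.51 and 8.29 FPKM (log2FC 2.54, adjusted p = 4.08e-06), which was still below NL (log2FC -1.83, adjusted p = 2.29e-05), although not with the same FPKM total in every library (log2FC -0.73, adjusted p = 0.248). The other neuropilin, Nrp2, had 2.73, 9.30 and 5.71 FPKM in c-MYC and 12.1, 16.8 and 15 FPKM with FOXO1AAA. It was not called (log2FC 1.46, 95% interval 0.69 to 2.23, adjusted p = 0.0509) and stood at the threshold, since it passed in 7 alternatives, among them no filter (adjusted p = 0.0467), the same FPKM total (0.0273), quantile normalization (0.0372), the replicate block (0.0455) and leaving out c-MYC replicate 2 (0.00323).

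The receptor genes that fell were Unc5b, Epha1, Plxna2 and Plxnb1. Unc5b had 1.29, 2.98 and 2.02 FPKM with FOXO1AAA (log2FC against c-MYC -2.73, SE 0.33, adjusted p = 0.000241), a level not called different from NL (log2FC 0.21, 95% interval -0.48 to 0.90). Epha1 had 0.942, 1.15 and 0.997 FPKM (log2FC -2.07, SE 0.16, adjusted p = 2.09e-05) and fell at both steps. Sema4g was also called lower at both steps, but its call in c-MYC against NL was lost in 6 alternatives. In NL, Epha1 made up 73.3% of the summed EphA FPKM.

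Plxnb1, the receptor of Sema4d, had 11.6, 17.2 and 11.2 FPKM in c-MYC and 4.16, 5.04 and 4.6 FPKM with FOXO1AAA (log2FC -1.51, SE 0.16, adjusted p = 0.000566). Plxna2 had 1.73, 2.99 and 1.57 FPKM in c-MYC and 0.551, 0.576 and 0.665 FPKM with FOXO1AAA (log2FC -1.73, SE 0.27, adjusted p = 0.00362). The call of Plxna2 was lost with a pseudocount of 1 (adjusted p = 0.0982). Unc5cl fell from 6.14 to 8.53 FPKM to 0.0236 to 0.114 FPKM, that is from 320 to 456 reads per library to 2 to 8 (log2FC -6.10, SE 0.79, adjusted p = 0.000161).

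Other receptor genes were not called when FOXO1AAA was added. Plxna3 had 6.67, 5.36 and 4.47 FPKM (log2FC 1.18, 95% interval 0.57 to 1.80, adjusted p = 0.0881) and Plxna1 had 86.1, 115 and 51.1 FPKM (log2FC 0.92, 95% interval 0.36 to 1.49, adjusted p = 0.285). Both intervals lie above 0 and neither passed the test against a 1.5-fold change. Without c-MYC/FOXO1AAA replicate 3 Plxna1 was called (adjusted p = 0.0111). Ephb4 had 15 to 15.9 FPKM, between the c-MYC and NL libraries (log2FC -0.51, adjusted p = 1).

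Against NL, 20 members were higher in c-MYC/FOXO1AAA and 16 were lower, beside 31.2% and 26.6% of all genes tested. Ligands were higher in 16 of 25 and lower in 6, and receptors or co-receptors were higher in 4 of 16 and lower in 9 (median log2FC -1.09). Without a filter, receptors or co-receptors were higher in 8 of 28 and lower in 9 (median 0.43), so the balance of receptors depends on the filter. Efnb2 and Nrp2 were called only in this comparison, at log2FC 2.11 (adjusted p = 0.000714) and 2.36 (adjusted p = 0.000318), as were the falls of Plxnb2, Robo4 and Unc50 (log2FC -0.94, -1.4 and -0.86), of which Plxnb2 and Unc50 turned to 0.16 and 0.24 with the same FPKM total in every library. Efnb2 was also called higher in c-MYC against NL without NL replicate 3 or c-MYC replicate 2 (adjusted p = 0.0464 and 0.0419). The call of Plxnb2 was lost without c-MYC/FOXO1AAA replicate 3 (adjusted p = 0.0524), that of Robo4 without NL replicate 4 or c-MYC/FOXO1AAA replicate 1 or 2 (adjusted p = 0.0593, 0.0699 and 0.108), and that of Unc50 without NL replicate 1 or 4 or c-MYC/FOXO1AAA replicate 1 or 2 (adjusted p = 0.0525 to 0.0673). Plxnb2 had the highest plexin FPKM in NL, at 47.6 to 55.0. Epha7 also lost its call against NL without c-MYC/FOXO1AAA replicate 1 (adjusted p = 0.0652). Sema3f and Sema6d were called in no comparison.

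The 18 members under the filter were Efna3, Efnb3, Epha3, Epha4, Epha5, Ephb1, Ephb2, Ephb3, Ephb6, Sema3g, Sema4f, Sema5b, Sema7a, Plxna4, Robo1, Robo3, Unc5a and Unc5c. Testing all 16697 genes without a filter gave 27 members higher and 8 lower of 61 with FOXO1AAA against c-MYC, beside 17.2% and 11.6% of all genes. In c-MYC against NL it gave 15 and 19, beside 22.5% and 22.3%, and in c-MYC/FOXO1AAA against NL 29 and 16, beside 31.2% and 24.6%.

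Epha5, a receptor best known from neurons, had 0 reads in all 4 NL and all 3 c-MYC libraries and 199, 87 and 87 reads in the c-MYC/FOXO1AAA libraries, at 1.56, 0.564 and 0.859 FPKM. Its mean was at least 31.7-fold higher than in c-MYC, with 3 reads per library as the limit that a count of 0 allows. Unc5c, a netrin receptor, had 0 reads in the c-MYC libraries and 61, 66 and 57 reads with FOXO1AAA, at least 15.6-fold higher. Beside Nrp2, Efna3, Ephb2, Ephb3, Sema4f, Plxna4 and Epha4 were also higher with FOXO1AAA when no filter was used (log2FC of these 6 genes 2.30 to 4.82, adjusted p = 3.03e-05 to 0.0213). In c-MYC against NL, the same test called Sema7a, Sema3g, Robo1, Efnb3 and Ephb1 higher (log2FC 1.73 to 3.5), and called Plxna4, Robo3, Efna3, Epha3 and Ephb3 lower (log2FC -2.42 to -1.96). Ephb6, Sema5b and Unc5a were called in no comparison.

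**Figure D4:**
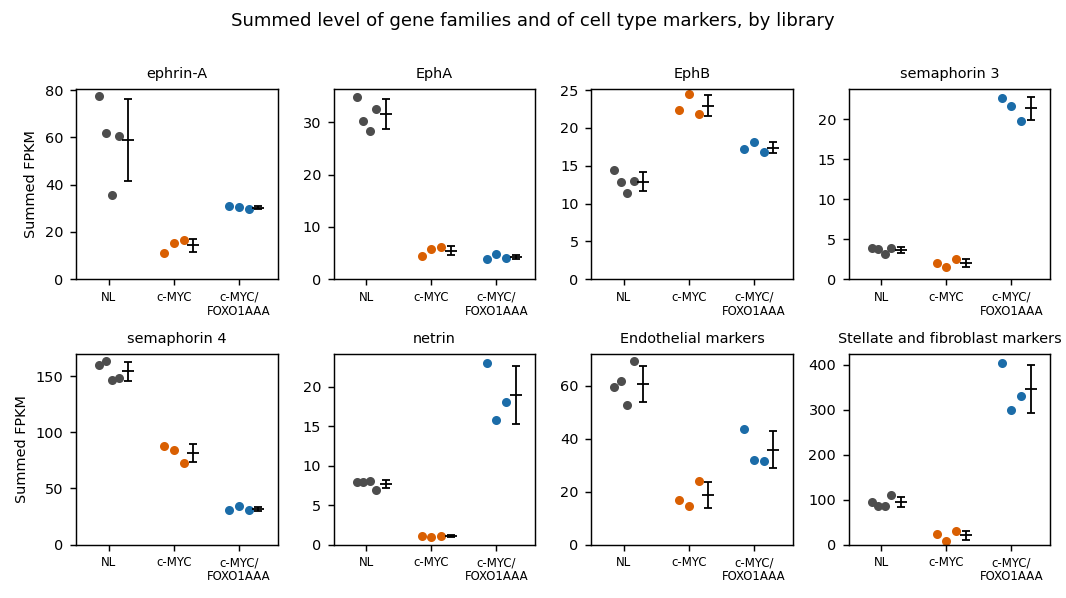
Points give the summed FPKM of a family or marker list in each library, with the group mean and SD in black (NL n = 4, c-MYC n = 3, c-MYC/FOXO1AAA n = 3). The class 3 semaphorin and netrin sums are highest with FOXO1AAA, as is the stellate and fibroblast sum at 300 to 404 FPKM, whereas the EphA and class 4 semaphorin sums are highest in NL.

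Markers of other liver cells moved between the same groups. Stellate and fibroblast markers (7 genes) summed to 85.6 to 109.8 FPKM in NL, 8.49 to 29.9 in c-MYC and 300 to 404 in c-MYC/FOXO1AAA. With FOXO1AAA against c-MYC, 4 of the 7 rose (Reln, Des, Pdgfrb and Dcn) and none fell, while in c-MYC against NL 5 fell and 1 rose. In c-MYC/FOXO1AAA against NL, 4 were higher (Des, Pdgfrb, Col1a1 and Dcn), 2 were lower (Lrat and Rgs5) and Reln was not called. Lrat, a defining gene of quiescent stellate cells, stood at 3.39 to 4.38 FPKM in NL, 0.00992 to 0.122 in c-MYC and 0.144 to 0.432 in c-MYC/FOXO1AAA. The rises of the class 3 semaphorins, Slit3 and Ntn4 run in the same direction, and the part of such cells in them was not tested. In whole tissue, fewer cells of a type and less RNA per cell cannot be told apart.

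Endothelial markers (9 genes) summed to 52.7 to 69.2 FPKM in NL, 14.6 to 24.0 in c-MYC and 31.7 to 43.8 in c-MYC/FOXO1AAA. Of the 8 tested, 5 fell and none rose in c-MYC against NL, and 1 (Cdh5) rose and none fell with FOXO1AAA against c-MYC. Without Cdh5 the other 8 genes summed to 48.9 to 64.9 FPKM in NL, 11.4 to 18 in c-MYC and 8.03 to 13.6 in c-MYC/FOXO1AAA, so the higher sum with FOXO1AAA than in c-MYC rested on Cdh5. Nrp1 fell from NL to c-MYC as both sums were lower there, and its rise with FOXO1AAA was shared by Cdh5 alone among the 8 markers tested. The part of endothelial cells in the levels of Nrp1 was not tested. Pecam1, a defining endothelial gene, was called in no comparison and had 3.61 to 5.21 FPKM in NL, 4.36 to 7.90 in c-MYC and 2.10 to 5.11 in c-MYC/FOXO1AAA. Macrophage and Kupffer cell markers (7 genes) summed to 176 to 308 FPKM in NL, 49.98 to 61.1 in c-MYC and 40.9 to 67.0 in c-MYC/FOXO1AAA, and cholangiocyte markers (5 genes) to 19.8 to 27.6, 17.3 to 32.1 and 29.9 to 37.8. The genes within these lists went in both directions. In c-MYC against NL, 3 macrophage markers fell and Cd68 rose (log2FC 2.34), and with FOXO1AAA against c-MYC Clec4f rose and Timd4 fell. Of the 4 cholangiocyte markers tested, Krt7 and Epcam rose and Spp1 fell in c-MYC against NL. With FOXO1AAA against c-MYC, Krt19 and Spp1 rose and Epcam fell. The sums of T and NK, B, neutrophil, and neuron and Schwann cell markers (3 genes each) stayed under 16 FPKM in every library, and the B cell sum was 7.49 to 12.1 in c-MYC/FOXO1AAA through Cd79a against at most 1.93 elsewhere.

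Genes around these ligands and receptors were read from lists of partners and effectors, of which 65 of 71 genes are in the table and 54 were tested. With FOXO1AAA against c-MYC 12 rose and 4 fell, in c-MYC against NL 16 rose and 14 fell, and in c-MYC/FOXO1AAA against NL 21 rose and 15 fell. These are 22.2% and 7.41%, 29.6% and 25.9%, and 38.9% and 27.8% of the list genes tested, beside 15.9% and 12.7%, 24.5% and 23.6%, and 31.2% and 26.6% of all genes. Of the list genes that rose with FOXO1AAA, at least Dpysl2, Mical1, Rgma, Rgmb and Flrt2 reached 1 FPKM only in the c-MYC/FOXO1AAA libraries. Their calls could hardly have gone the other way. Among the netrin and repulsive guidance genes, 4 of 5 rose with FOXO1AAA and none fell. These were Neo1, which encodes the netrin receptor neogenin (2.54 to 3.94 FPKM in c-MYC, 10.1 to 15.4 with FOXO1AAA, log2FC 2.04), its ligands Rgma and Rgmb (log2FC 5.53 and 4.62), and Flrt2, a ligand of Unc5 receptors (log2FC 4.10). Among these 4 genes, only Neo1 reached 1 FPKM outside the c-MYC/FOXO1AAA libraries.

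Among 14 semaphorin and plexin effectors, 3 rose and 2 fell with FOXO1AAA (21.4% and 14.3%), which is near the 15.9% and 12.7% of all genes. Dpysl2, which encodes the collapsin response mediator CRMP2, had 0.0705 to 0.325 FPKM in c-MYC and 13.5 to 18.2 FPKM with FOXO1AAA (log2FC 6.20, adjusted p = 1.73e-06). Mical1, an actin-oxidizing enzyme downstream of plexin-A, rose by a log2FC of 3.83 and Dpysl3 by 2.92. Farp2, a plexin-A partner, and Fyn, a kinase of the same pathway, fell by 2.6 and 1.58 on the log2 scale. Of 9 Eph effectors, 2 rose and 2 fell, of 12 shared actin genes 1 rose and none fell, and of 7 partner receptors, 2 rose (Erbb2 and Itga7) and none fell. None of the 7 Slit-Robo effectors was called with FOXO1AAA, and 5 of the 7 rose in c-MYC against NL (Arhgap39, Abl1, Abl2, Enah and Nck2).

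The start regions of the genes were read for the letters of a forkhead motif and an E-box, the sequence classes that FOXO1 and c-MYC are known to bind. The windows are the 250 bases before each RefSeq start (GRCm38.p6), and 54 of the 61 members had 70 such windows. GTAAACA, read on both strands, was in 0 of the 70 windows and in 3.17% of all 32851 windows. CACGTG, which reads the same on both strands and does not overlap GTAAACA, was in 3 of 70 (4.29%, in Robo2, Sema4b and Sema6d) and in 6.02% of all. A match is only a match of letters, and no match says only that these letters are not in this window. The windows of the 2 ligands with the largest called rises among those above 3 FPKM in every c-MYC/FOXO1AAA library and free of annotated exons, and of Robo2, which holds the E-box, are shown 5′ to 3′ with the E-box in capitals. Efna5 lies at chr17:62604184-62881317 (minus strand), Ntn4 at chr10:93640681-93747207 (plus strand) and Robo2 at chr16:73891839-74411825 (minus strand) in GENCODE M21. The Ntn4 window lies inside the GENCODE gene, after its first start, and the Robo2 window belongs to a RefSeq start upstream of the GENCODE gene.
Efna5, chr17:62881318-62881567, minus strand: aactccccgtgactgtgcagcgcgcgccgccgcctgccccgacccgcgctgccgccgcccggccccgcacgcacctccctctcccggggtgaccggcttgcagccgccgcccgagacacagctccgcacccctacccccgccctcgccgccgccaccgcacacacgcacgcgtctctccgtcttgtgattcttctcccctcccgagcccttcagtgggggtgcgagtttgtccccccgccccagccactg
Ntn4, chr10:93640799-93641048, plus strand: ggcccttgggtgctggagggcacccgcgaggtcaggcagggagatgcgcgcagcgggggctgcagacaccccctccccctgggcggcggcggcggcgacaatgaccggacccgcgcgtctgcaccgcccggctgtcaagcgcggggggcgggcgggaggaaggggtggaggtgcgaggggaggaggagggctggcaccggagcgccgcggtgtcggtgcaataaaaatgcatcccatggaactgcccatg
Robo2, chr16:75447294-75447543, minus strand: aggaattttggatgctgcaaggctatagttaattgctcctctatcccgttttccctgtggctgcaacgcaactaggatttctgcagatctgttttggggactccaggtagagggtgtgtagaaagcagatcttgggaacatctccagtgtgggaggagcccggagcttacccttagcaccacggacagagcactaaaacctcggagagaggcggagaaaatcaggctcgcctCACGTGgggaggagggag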

How the data were processed

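RNA was sequenced from 4 NL, 3 c-MYC and 3 c-MYC/FOXO1AAA libraries. The deposited values are log2 FPKM per gene, which the authors computed with edgeR from counts per Ensembl gene. Per the labels, FastQC 0.11.7 and GRCm38 were used, and the aligner, counter and strand setting are not given in the sources used here. They hold an average prior count of 2, scaled to library size. Whole reads and gene lengths were recovered from the steps of low values, with 1 solution for 99.5% of 16697 genes and for 61 of 61 members. Rows without a symbol (372 of 17069) were left out.

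Genes that reached a deposited FPKM of 1 in 3 or more libraries had their log2 values tested with limma 3.58.1 (R 4.3.3; treat, 1.5-fold, trend and robust) over all 10 libraries, with Benjamini-Hochberg adjustment over 14017 genes. The procedure was tested on simulated data. Members and lists were chosen with earlier results of these data known. Per-library values are given for at most the 8 largest changes per direction in the first 2 comparisons among called members without overlap and with a mean of at least 1 FPKM, and other members are named by role. Replicate pairs differed beyond sampling noise (chi-square per degree of freedom 8.66 to 31.6). Alternatives covered pseudocount, filter, scaling, threshold, samples, a replicate block and leaving out each library.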

Additional observations from a re-analysis of the deposited data

Results flagged for a closer look

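In NL, the only group with 4 libraries, 3 of 60 genes had a library that stood apart from the others by Dixon's criterion at its 95% level, where chance gives about 1 in 20. Ephb3 had 0.0939 FPKM in NL replicate 4 (4 reads) and 0.191 to 0.216 in the others (9 or 10 reads). Slit3 had 0.0426 FPKM in NL replicate 4 (2 reads) and 0.0173 to 0.0203 in the others (1 read each). Plxnb1 had 10.1 FPKM in NL replicate 3 (851 reads) and 11.0 to 11.1 in the others.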

How the results depend on the processing

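Of 86 calls of a member in a comparison, 61 held in every alternative run, 25 were lost in at least 1, and 9 were lost when 1 library was left out, as given beside those genes. With the same FPKM total in every library, 16 members were higher in c-MYC against NL and 5 were lower in c-MYC/FOXO1AAA against NL, and Plxnb2 and Unc50 reversed in c-MYC/FOXO1AAA against NL, at log2FC 0.16 and 0.24, neither past the threshold. With a 2-fold threshold 8 were lower in that comparison. Without 1 library, the members higher and lower ranged over 9 to 11 and 13 to 15 in c-MYC against NL, 17 to 19 and 7 to 8 in c-MYC/FOXO1AAA against c-MYC, and 20 to 21 and 13 to 17 in c-MYC/FOXO1AAA against NL. Replicate numbers are shared between groups but did not pair the libraries (correlation of deviations -0.06 to 0.03 for the same number). With the replicate block the counts were 9 and 13, 18 and 7, and 20 and 15, in the same order. A voom fit on the recovered reads, chosen after seeing the data, lost none of the calls. Genes with under about 10 reads per library are limited by depth, and a pseudocount of 1 lost 11 calls.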
